A study of Nicotiana with 12 samples.

Results

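The genotype by water interaction of tobacco leaves asks, gene by gene, whether water deficit changed RNA levels by the same amount in PSARK::IPT plants as in wild-type plants. It was computed as the stress change in PSARK::IPT leaves (300 mL minus 1000 mL of water per pot and day) minus the stress change in WT leaves (300 mL minus 1000 mL). All 12 arrays of the series entered it, 3 labelled biological replicates in each of 4 groups: stressed PSARK::IPT, watered PSARK::IPT, stressed WT and watered WT. PSARK::IPT plants (IPT leaves from here on) carry IPT, the gene of isopentenyltransferase, behind the promoter of a senescence-associated receptor kinase, SARK, and WT plants carry no transgene per the labels. The plants had moved to the greenhouse at 3 weeks of age, were watered at 1 of these rates for 45 days, and were about 10 weeks old per the labels. The transgenic line or lines, and whether 1 plant or a pool made a sample, cannot be read from the labels used here.

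Isopentenyltransferase makes the first intermediate of cytokinin synthesis. Cytokinins are plant hormones that delay leaf senescence and keep chloroplasts and sink activity going, and the SARK promoter becomes active as leaves mature and under stress. In leaves, long water deficit lowers photosynthetic gene expression and stomatal opening, raises abscisic acid, and shifts carbohydrate use, cell wall turnover and antioxidant defence. No probe set carried the symbol of IPT or of any gene on the cytokinin list, so the transgene and cytokinin genes could not be identified here. Most probe sets carry no symbol, and whether any of them reads such a gene is not known.

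The array was Affymetrix's Tomato Genome Array and the RNA was of tobacco, so every probe reads a tobacco transcript through a tomato sequence, and gene names and roles are those of tomato. Values are log2 RMA values, in which 1 unit is a doubling. Array medians lay between 3.38 and 3.45, and values near or below them are dim. Within groups, arrays correlated at r = 0.982 to 0.992 over all probe sets. The leaf markers CAB4 and CAB6A were bright, with means over all arrays of 10.37 and 8.65, and CAB5 was lower at 6.05. Of 10101 probe sets tested, 702 carried 1 of 626 tomato gene symbols other than LOC numbers, 207 carried a LOC symbol and 9192 carried none. RNA was taken from whole leaves, so fewer cells of a type and less RNA per cell cannot be told apart.

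The interaction was tested with limma across all probe sets, and the threshold for passing was 0.05 on the Benjamini-Hochberg adjusted p. In all, 192 probe sets passed, 1.90% of those tested. The change was higher in IPT than in WT for 111 of them (1.10%) and lower for 81 (0.802%). An absolute interaction of at least 1 was reached by 108, of which 76 were higher and 32 lower. The interaction is the difference of 2 differences and was less precise than either: its median standard error was 0.20, against 0.14 for a single stress change.

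The stress change itself passed for 137 probe sets in IPT leaves (1.36%) and for 1142 in WT leaves (11.3%). Fewer calls in IPT do not by themselves show a different response, since 972 of the WT calls did not pass the interaction. Probe sets that did pass were sorted by which stress change had passed. A rise in WT with no passing change in IPT, here called a lost rise, was found for 73 probe sets, and a lost fall for 78. A change that passed in IPT only was gained for 16, of which 13 rose and 3 fell. In 11 the direction reversed, and each of those rose in IPT and fell in WT. Both changes passed in the same direction for 8, weaker in IPT for 5 and stronger for 3, and neither passed for the other 6. These classes describe the calls: a stress change that missed the threshold in IPT was not shown to be 0, and the classes and the interaction rest on the same arrays.

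**Figure D1:**
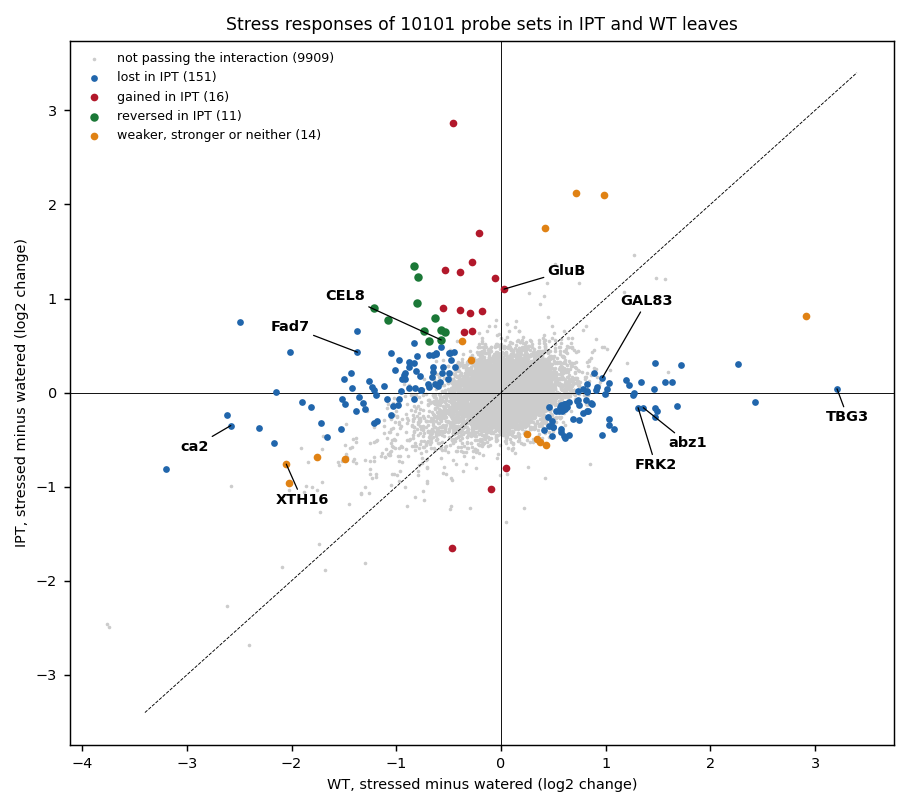
Each of the 10101 probe sets is a point, with the log2 stress change in WT leaves on the x axis and in IPT leaves on the y axis; the dashed line marks equal change. Coloured points passed the interaction, and the 151 lost responses did not pass in IPT, with Fad7 at 0.43 in IPT and -1.37 in WT and TBG3 at 0.04 in IPT and 3.21 in WT.

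Among the 702 probe sets with a symbol, 18 passed, for 17 genes, beside 192 of 10101 (1.90%) over all probe sets. Counts of passing list members below stand beside that same share, and no list was tested as a set. A lost rise was found for 10 genes (TBG3, abz1, FRK2, DDTFR18, GAL83, GPXle-1, hqt, PYD1A, eIF-5A1 and LAPA2), and 4 had a lost fall (ca2, Fad7, PTI4 and CAB4). GluB was gained, CEL8 reversed and XTH16 fell less in IPT. Under stress all 17 genes differed between IPT and WT leaves (16.7% of all probe sets passed in that comparison), and when watered 5 did (13.8% of all). The 5 were FRK2, DDTFR18, Fad7, XTH16 and ca2, so the other 12 passed between genotypes only in the stressed leaves. That layout does not hold for the calls as a whole: of the 192 passing probe sets, 143 differed under stress and 121 when watered. The interaction equals the stressed genotype difference minus the watered one. Probe sets that pass it therefore tend to pass in these comparisons, and the higher shares are no independent support.

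Control probe sets moved with the groups and stand beside everything that follows. Poly-A controls, bacterial transcripts that carry probe sets of their own on the array, had mean log2 levels of 8.38 ± 0.08 in stressed IPT, 8.12 ± 0.16 in watered IPT, 7.85 ± 0.41 in stressed WT and 9.90 ± 0.03 in watered WT leaves (SD, n = 3 each, 36 probe sets). The 3 watered WT arrays were thus set apart from the other 9. The stress difference of this level was 0.25 in IPT (exact permutation p = 0.2, two-sided) and -2.04 in WT (exact permutation p = 0.1, the smallest that 3 against 3 arrays allow).

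Their 3' probe sets exceeded their 5' probe sets by 3.59 ± 0.10 in stressed IPT and 2.79 ± 0.43 in watered IPT, against 4.45 ± 0.87 in stressed WT and 2.23 ± 0.08 in watered WT leaves (log2, SD, n = 3 each). The widest gap of any array, 5.44, was in stressed WT replicate 2. Probe sets at the ends of leaf transcripts moved too. The GAPDH 3' minus 5' gap was 4.65 ± 0.15 in stressed and 4.09 ± 0.17 in watered IPT, against 4.52 ± 0.15 in stressed and 3.81 ± 0.29 in watered WT leaves, and stressed arrays lay above watered ones in each genotype. For EF1a it was 1.09 ± 0.13 in stressed and 0.92 ± 0.14 in watered IPT, against 1.76 ± 0.09 in stressed and 1.11 ± 0.23 in watered WT leaves, where the WT groups did not overlap and the IPT groups did (log2, SD, n = 3 each). The stress differences of these gaps were 0.56 in IPT and 0.71 in WT for GAPDH, and 0.17 in IPT and 0.65 in WT for EF1a. For actin they were 0.81 in IPT and 0.93 in WT, and for ubiquitin 0.32 in IPT and 0.11 in WT.

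The arrays that separate the WT groups are thus also separated by the poly-A controls, and the water effect in WT and the control level cannot be told apart in full. With the 3' minus 5' gap as a covariate, 105 probe sets passed the interaction, 76 of them among the 192, and all 192 kept their sign. With the control level as a covariate, which widened the median standard error 3.21 times, 73 passed, 2 of them among the 192, and 161 of the 192 kept their sign. The share of calls that were higher in IPT was 57.8% without a covariate and 11% with the level.

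**Figure D2:**
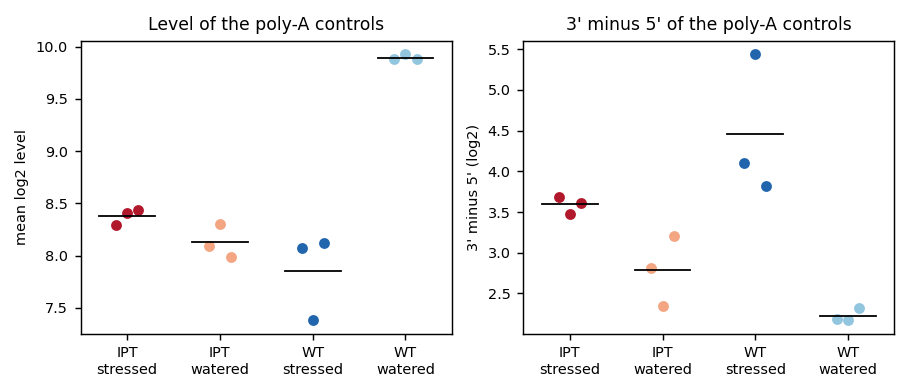
Poly-A controls on each of the 12 arrays, with the mean log2 level in the left panel and the 3' minus 5' difference (log2) in the right panel; points are arrays and lines are group means. Watered WT arrays lie at 9.88 to 9.93 in level, and stressed WT replicate 2 lies highest in 3' minus 5' at 5.44.

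The strongest lost rise of a named gene was in TBG3, a beta-galactosidase that removes galactose from cell wall polysaccharides. Its levels were 5.56, 5.53 and 5.54 in stressed IPT and 5.51, 5.54 and 5.45 in watered IPT leaves, against 8.45, 8.41 and 8.58 in stressed WT and 5.32, 5.43 and 5.06 in watered WT leaves. The 3 stressed WT arrays stood alone, and the other 9 arrays lay between 5.06 and 5.56. TBG3 rose 9.24-fold in WT, and the interaction was -3.17 (SE 0.17, 95% interval -3.52 to -2.82, adjusted p = 1.92e-08). It was the only named gene that also passed with the poly-A level as a covariate (-3.57, adjusted p = 0.00457). Of 7 TBG genes measured, TBG3 alone passed. TBG5 and TBG4 rose in WT by 0.61 and 0.64 and had interactions of -0.72 (adjusted p = 0.152) and -0.47 (adjusted p = 0.179), while TBG6 had 0.57 (adjusted p = 0.352).

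Sugar metabolism and its signalling held 2 lost rises. FRK2, a fructokinase that phosphorylates fructose on its way into glycolysis and starch, had 7.85, 8.08 and 7.89 in stressed IPT and 8.15, 8.10 and 8.04 in watered IPT leaves, against 6.80, 6.90 and 6.53 in stressed WT and 5.41, 5.40 and 5.50 in watered WT leaves. IPT leaves were above WT leaves at either watering, by 1.20 under stress and by 2.66 when watered. FRK2 rose 2.48-fold in WT, without reaching the IPT level, and its interaction was -1.46 (SE 0.17, adjusted p = 0.000112). Here the loss came with a level that was already high in watered IPT leaves.

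GAL83, a beta subunit of the SnRK1 kinase that senses energy shortage, showed another layout. It had 6.51, 6.60 and 6.64 in stressed IPT and 6.31, 6.38 and 6.59 in watered IPT leaves, against 7.39, 7.06 and 7.50 in stressed WT and 6.33, 6.35 and 6.34 in watered WT leaves. Only the stressed WT arrays were high. The WT rise was 1.96-fold, and the interaction was -0.81 (SE 0.18, adjusted p = 0.0244). It rests on small margins, since it missed the threshold with any of 8 arrays left out (adjusted p up to 0.0831, without watered IPT replicate 3) and passed only without stressed WT replicate 2, watered IPT replicate 1 or 2, or stressed IPT replicate 3. SNF1 and SNF4, the other SnRK1 subunits on the array, had interactions of 0.01 and -0.41 and did not pass.

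Starch and sucrose enzymes that rose in WT without passing the interaction were BMY3, a beta-amylase, and sus3, a sucrose synthase. BMY3 had 3.18, 3.24 and 3.11 in stressed IPT and 2.60, 3.18 and 3.07 in watered IPT leaves, against 5.22, 6.60 and 5.59 in stressed WT and 4.92, 4.03 and 3.66 in watered WT leaves. All 6 IPT arrays were below all 6 WT arrays, and the watered WT arrays scattered widely. Its interaction of -1.38 did not pass (adjusted p = 0.131), its dimmer probe sets had 0.21 and 0.27, and neither did that of sus3, -0.82 (adjusted p = 0.0636). Over the 19 genes for sucrose and starch metabolism, FRK2 was the 1 that passed, and the median interaction was -0.13, near the median of -0.034 over all probe sets.

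Among regulators, abz1, a small bZIP transcription factor known in tomato for its induction under low oxygen, had a lost rise. Its levels were 3.75, 4.12 and 3.76 in stressed IPT and 3.87, 3.89 and 4.36 in watered IPT leaves, against 5.49, 5.21 and 5.56 in stressed WT and 4.10, 4.14 and 3.93 in watered WT leaves. The stressed WT arrays lay above the other 9, which overlapped. The WT rise was 2.57-fold and the interaction -1.53 (SE 0.22, 95% interval -1.99 to -1.07, adjusted p = 0.000699). In the abscisic acid list, which counts bZIP factors, abz1 was 1 lower gene of 3, and the median interaction was -0.57. It was also the 1 gene of 17 that passed among stress-related transcription factors, whose median was -0.13.

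PTI4, an ethylene response factor that binds the tomato resistance kinase Pto, went the other way. It had 4.21, 3.90 and 4.22 in stressed IPT and 3.53, 4.03 and 3.51 in watered IPT leaves, against 3.45, 3.20 and 2.96 in stressed WT and 3.69, 3.82 and 3.95 in watered WT leaves. The WT groups did not overlap, the IPT groups did, and all values were close to the array medians. The WT fall was 1.53-fold, and the interaction was 1.04 (SE 0.23, adjusted p = 0.0244). Leaving out any of 7 arrays ended the call: watered WT replicates 2 and 3, stressed WT replicate 3, watered IPT replicates 1 and 3, and stressed IPT replicates 1 and 3, with adjusted p up to 0.0836. It was the 1 gene of 35 on the ethylene list to pass, where the median interaction was -0.06.

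The largest lost fall of a named gene was that of ca2, a carbonic anhydrase, the enzyme that interconverts carbon dioxide and bicarbonate. Its brightest probe set had 11.81, 11.77 and 11.78 in stressed IPT and 12.07, 12.10 and 11.91 in watered IPT leaves, against 9.11, 8.28 and 9.16 in stressed WT and 11.45, 11.47 and 11.49 in watered WT leaves. The stressed WT arrays were low, and even the stressed IPT arrays lay above the watered WT arrays. The fall was 6.16-fold in WT, and the interaction was 2.38 (SE 0.25, 95% interval 1.85 to 2.91, adjusted p = 4.16e-05).

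The next brightest ca2 probe set gave 2.23 (adjusted p = 0.00195), with 11.45, 11.30 and 11.36 in stressed IPT and 11.74, 11.83 and 11.58 in watered IPT leaves, against 8.60, 7.48 and 9.01 in stressed WT and 11.02, 10.89 and 10.93 in watered WT leaves. The other ca2 probe sets were dim, with means of 2.78 and 2.73, and had interactions of 0.10 and 0.38 that did not pass. Both bright ones were lowest in stressed WT replicate 2, the array with the widest poly-A 3' minus 5' gap. Without that array they gave 2.10 and 1.79 and still passed, and with the gap as a covariate 1.69 (adjusted p = 0.00109) and 1.15 (adjusted p = 0.0439). With the poly-A level as a covariate they were -0.08 (SE 0.5) and -1.54 (SE 0.64) and did not pass (adjusted p = 0.984 and 0.378). In that fit the direction of ca2 was not resolved. Of 3 genes for carbon dioxide supply and fixation, ca2 was the 1 to pass in the main fit, and that list's median was 0.17.

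Fad7, a plastid omega-3 desaturase that makes the trienoic fatty acids of chloroplast membranes, had the next lost fall by size among named genes. It had 7.49, 7.54 and 7.46 in stressed IPT and 6.97, 7.25 and 6.97 in watered IPT leaves, against 5.42, 5.12 and 5.18 in stressed WT and 6.59, 6.69 and 6.54 in watered WT leaves. The 2 WT groups did not overlap and both lay below the IPT groups. The difference of 0.43 in IPT did not pass (adjusted p = 0.105), Fad7 fell 2.58-fold in WT, and the interaction was 1.80 (SE 0.17, 95% interval 1.44 to 2.16, adjusted p = 1.77e-05). With the 3' minus 5' gap as a covariate it was 1.59 (adjusted p = 0.00187). AOC, an allene oxide cyclase of jasmonate synthesis, which draws on the same trienoic acids, fell by 0.74 in WT and had an interaction of 0.72 that did not pass (adjusted p = 0.0824). In the list of desaturases and oxylipin enzymes, Fad7 was 1 of 13 to pass, and the median interaction was 0.24.

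CAB4, a chlorophyll a/b-binding protein of the light-harvesting antenna, had a small but even lost fall. Its levels were 10.64, 10.51 and 10.53 in stressed IPT and 10.49, 10.46 and 10.47 in watered IPT leaves, against 9.93, 9.91 and 9.90 in stressed WT and 10.53, 10.50 and 10.59 in watered WT leaves. The stressed WT arrays alone were low. The WT fall was 1.55-fold and the interaction 0.71 (SE 0.14, adjusted p = 0.0134). It missed the threshold after quantile normalization (0.55, adjusted p = 0.0694) and with the 3' minus 5' gap as a covariate (0.73, adjusted p = 0.0865). CAB5 and CAB6A, the other antenna genes measured, had 0.54 (adjusted p = 0.0995) and 0.23 (adjusted p = 0.579). None of 4 photosystem II genes passed. PsbQ and PSBP of the oxygen-evolving complex had 0.36 and 0.35 (adjusted p = 0.264 and 0.315). Both passed with trended robust moderation (0.00424 and 0.0325) and in no other alternative. After quantile normalization they had 0.15 and 0.27 (adjusted p = 0.71 and 0.443). Median interactions were 0.54 over the 3 antenna genes and 0.25 over the photosystem II genes, beside -0.034 over all probe sets.

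Cell wall genes went in different directions. CEL8, an endo-1,4-beta-glucanase that cuts glucan chains, was the 1 named gene whose response reversed. Its levels were 4.37, 4.36 and 4.33 in stressed IPT and 3.78, 3.86 and 3.75 in watered IPT leaves, against 2.98, 3.39 and 3.21 in stressed WT and 3.80, 3.70 and 3.79 in watered WT leaves. Watered leaves of the genotypes overlapped, stressed IPT arrays were the highest and stressed WT arrays the lowest. The stressed WT values lay near or below the array medians, so the fall in WT was read on a dim signal. CEL8 rose 1.47-fold in IPT (adjusted p = 0.0257) and fell 1.48-fold in WT (adjusted p = 0.00518), and the interaction was 1.12 (SE 0.17, 95% interval 0.77 to 1.48, adjusted p = 0.00104). With the poly-A 3' minus 5' gap as a covariate the interaction was 1.29 (adjusted p = 0.0075), but the reversal was not called: of all probe sets 0 were reversed in that fit, against 11 without the covariate.

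XTH16, a xyloglucan endotransglucosylase that cuts and rejoins wall xyloglucan, fell in both genotypes on the probe set that passed, by less in IPT. That probe set had 7.17, 7.14 and 7.09 in stressed IPT and 7.93, 8.04 and 7.71 in watered IPT leaves, against 4.10, 3.24 and 3.52 in stressed WT and 5.77, 5.55 and 5.69 in watered WT leaves. No 2 of the 4 groups overlapped, and the genotypes were further apart than the watering levels. The falls were 1.69-fold in IPT (adjusted p = 0.0386) and 4.14-fold in WT, with an interaction of 1.29 (SE 0.24, adjusted p = 0.00686). With the 3' minus 5' gap as a covariate it was 0.84 (adjusted p = 0.231), and with the poly-A level -0.36. The other XTH16 probe sets did not share it: they gave 0.06, on a dim one with a mean of 2.93, and 0.27, on one with a mean of 6.10. The latter did not share the fall either: its stress changes were 0.25 in IPT and -0.02 in WT. The cell wall list took that last probe set as the brightest, and on it 2 of 44 genes passed, CEL8 higher and TBG3 lower, with a median interaction of -0.08. Cel1, another endoglucanase, did not pass in IPT (-0.20), fell in WT, and had an interaction of 0.80 that did not pass (adjusted p = 0.0623). It did pass after median centring (0.041) or quantile normalization (0.0462), among brighter probe sets (0.0339), with trended robust moderation (0.043) and with the replicate block (0.042). With the 3' minus 5' gap as a covariate it was 0.62 (adjusted p = 0.412), and with the poly-A level 0.22 (adjusted p = 0.957).

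The gained response was in GluB, a basic beta-1,3-glucanase of the pathogenesis-related proteins. It had 4.13, 4.44 and 4.53 in stressed IPT and 3.44, 3.29 and 3.06 in watered IPT leaves, against 2.52, 3.13 and 2.94 in stressed WT and 3.04, 2.64 and 2.84 in watered WT leaves. The stressed IPT arrays were the highest, and all 6 WT arrays lay below the array medians, so they were dim. GluB rose 2.15-fold in IPT (adjusted p = 0.00171), differed by 0.03 in WT, which did not pass, and had an interaction of 1.08 (SE 0.24, 95% interval 0.58 to 1.58, adjusted p = 0.024). Its call ended without any of 6 arrays, which were watered WT replicates 1 and 3, stressed WT replicate 1, watered IPT replicate 3 and stressed IPT replicates 2 and 3 (adjusted p up to 0.0786). GluB was 1 of 8 pathogenesis-related genes to pass, with a median interaction of 0.22.

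PR-5, the thaumatin-like member of the same list, rose in IPT by 0.94 (adjusted p = 0.0424), with 3.09, 3.41 and 4.30 in stressed IPT and 2.73, 2.61 and 2.62 in watered IPT leaves, against 3.22, 3.08 and 3.50 in stressed WT and 2.88, 2.93 and 2.88 in watered WT leaves. Stressed arrays were above watered arrays in either genotype, and its interaction of 0.58 did not pass (adjusted p = 0.422). Much of that value rested on stressed IPT replicate 3, the highest array, without which it was 0.22 (adjusted p = 0.669). ME2, a malic enzyme, and AGAL, an alpha-galactosidase, also rose in IPT, by 0.54 and 0.59, and had interactions of 0.36 and 0.38 that did not pass (adjusted p = 0.315 and 0.31). A gain in IPT over WT was thus not shown for these 3 genes.

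**Figure D3:**
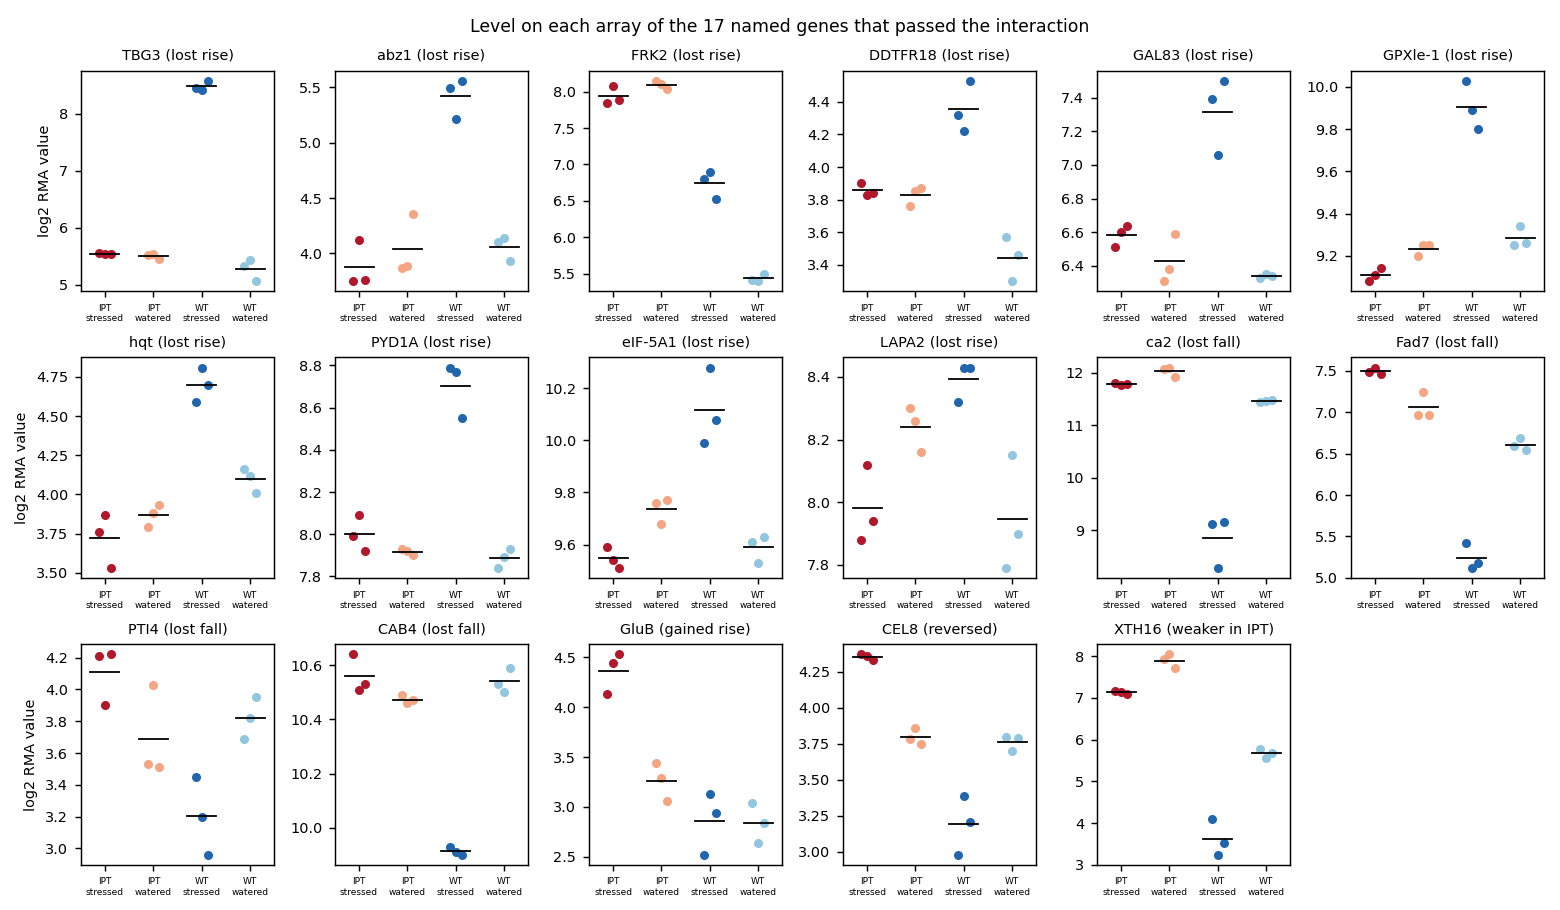
Log2 RMA value of each array for the 17 named genes that passed the interaction, 1 panel per gene, with the groups from left to right stressed IPT, watered IPT, stressed WT and watered WT; lines are means of 3 arrays, and the y axes differ and do not start at 0. In the lost rises other than FRK2 the stressed WT arrays lie highest, as for TBG3 at 8.41 to 8.58.

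The other 6 genes had lost rises of smaller size, from 1.36-fold to 1.88-fold in WT. GPXle-1, a glutathione peroxidase that removes lipid peroxides, had 9.08, 9.11 and 9.14 in stressed IPT and 9.20, 9.25 and 9.25 in watered IPT leaves, against 10.03, 9.89 and 9.80 in stressed WT and 9.25, 9.34 and 9.26 in watered WT leaves. The stressed WT arrays were highest and the stressed IPT arrays lowest. The interaction was -0.74 (SE 0.15, adjusted p = 0.0141), and GPXle-1 was the 1 of 15 antioxidant genes to pass, with a list median of -0.01.

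The transferase hqt, which makes chlorogenic acid, the main soluble phenolic of leaves in this plant family, had 3.76, 3.87 and 3.53 in stressed IPT and 3.79, 3.88 and 3.93 in watered IPT leaves, against 4.59, 4.81 and 4.70 in stressed WT and 4.16, 4.12 and 4.01 in watered WT leaves. WT arrays were above IPT arrays at either watering, most under stress. Its interaction was -0.74 (SE 0.17, adjusted p = 0.03), and it passed only without watered WT replicate 1, stressed WT replicate 1 or 3, or stressed IPT replicate 2, with adjusted p up to 0.0898 for the other 8 arrays. It was 1 of 7 phenylpropanoid genes to pass, with a median of -0.18.

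LAPA2, a leucine aminopeptidase of the wound response, had 7.88, 8.12 and 7.94 in stressed IPT and 8.30, 8.26 and 8.16 in watered IPT leaves, against 8.32, 8.43 and 8.43 in stressed WT and 7.79, 8.15 and 7.90 in watered WT leaves. Stressed arrays were below watered ones in IPT, by a difference of -0.26 that did not pass, and above them in WT. The interaction of -0.71 (SE 0.17, adjusted p = 0.0454) was the weakest call of a named gene: it passed only without watered WT replicate 2 or stressed IPT replicate 2, and adjusted p reached 0.124 with another array left out. LAPA2 was 1 of 11 proteases to pass, with a median of -0.14.

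The translation factor eIF-5A1 had 9.59, 9.54 and 9.51 in stressed IPT and 9.76, 9.68 and 9.77 in watered IPT leaves, against 9.99, 10.28 and 10.08 in stressed WT and 9.61, 9.53 and 9.63 in watered WT leaves. The stressed WT arrays were the highest, and the interaction was -0.72 (SE 0.16, adjusted p = 0.0233). It missed the threshold without watered WT replicate 2, watered IPT replicate 1 or 3, or stressed IPT replicate 2 or 3 (adjusted p up to 0.0687). PYD1A had 7.99, 8.09 and 7.92 in stressed IPT and 7.93, 7.92 and 7.90 in watered IPT leaves, against 8.79, 8.77 and 8.55 in stressed WT and 7.84, 7.89 and 7.93 in watered WT leaves. Its interaction was -0.73 (adjusted p = 0.0191), and it missed the threshold without watered IPT replicate 1 (0.054) or stressed IPT replicate 3 (0.0577). DDTFR18 had 3.90, 3.83 and 3.84 in stressed IPT and 3.76, 3.85 and 3.87 in watered IPT leaves, against 4.32, 4.22 and 4.53 in stressed WT and 3.57, 3.30 and 3.46 in watered WT leaves. There the IPT arrays lay between the WT groups, and the interaction was -0.88 (SE 0.17, adjusted p = 0.00748).

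**Figure D4:**
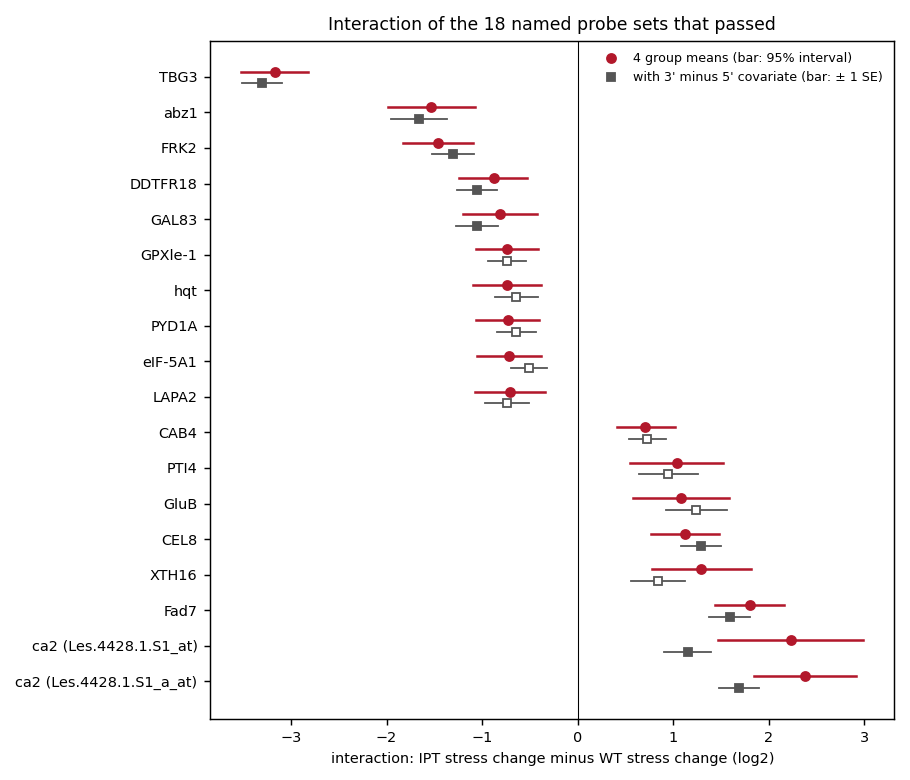
Interaction (IPT stress change minus WT stress change, log2) of the 18 named probe sets that passed, as circles with 95% intervals from 4 group means, and as squares with ± 1 SE with the poly-A 3' minus 5' gap as a covariate; filled squares passed in that fit. TBG3 stays near -3.17, while the ca2 probe sets move toward 0, to 1.69 and 1.15.

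Leaving out stressed WT replicate 2 gave 192 passing probe sets again, 161 of them shared, and 17 named probe sets, losing hqt and LAPA2 and adding HSP21 at -0.95. Of the 18 named probe sets, 9 stayed called with the 3' minus 5' gap as a covariate: those of TBG3, abz1, FRK2, DDTFR18, GAL83, Fad7, CEL8 and both of ca2. The 9 others kept their sign there, with adjusted p from 0.0865 to 0.299. The part of the poly-A differences in these results was not tested further.

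Several WT stress genes had point estimates like those of the lost responses and missed the threshold. In all, 64 named probe sets passed in WT and not in the interaction. MKK4, a MAP kinase kinase, was nearest, with -0.90 (adjusted p = 0.053). PTOX, the plastid terminal oxidase that takes electrons from carotenoid synthesis, had -1.04 (adjusted p = 0.0623): its levels were 5.49, 5.52 and 5.60 in stressed IPT and 5.27, 5.80 and 5.63 in watered IPT leaves, against 5.42, 5.93 and 5.66 in stressed WT and 4.19, 4.98 and 4.81 in watered WT leaves. PTOX passed with the replicate block (0.0136), with trended moderation (0.0201) and among brighter probe sets (0.0414), and MKK4 with trended moderation (0.0221), array weights (0.0365), quantile normalization (0.0494) and among brighter probe sets (0.0322). Neither passed with the 3' minus 5' gap as a covariate, where PTOX had -0.83 (adjusted p = 0.406) and MKK4 -0.95 (adjusted p = 0.211). With the poly-A level PTOX had -0.40 (adjusted p = 0.94) and MKK4 -1.35 (adjusted p = 0.538). Only the watered WT arrays were low for PTOX, the same arrays in which the poly-A level was high. PTOX led the carotenoid list, on which 0 of 10 genes passed with a median of 0.03, followed by LCY1, a lycopene cyclase (-0.24, adjusted p = 0.505).

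Chaperones and dehydration proteins, the classical drought markers, had 0 of 7 and 0 of 6 genes pass by the adjusted p in limma. With 1.90% of all probe sets passing, lists this short would seldom hold a call, so these counts do not set drought markers apart. HSP21, a chloroplast small heat-shock protein, rose in WT by 0.95 and had an interaction of -0.84 (adjusted p = 0.0623), and HSC80, an HSP90-type chaperone, had -0.51 (adjusted p = 0.144). The dehydrin TAS14 differed by 0.16 in IPT, which did not pass, rose by 0.73 in WT, and had -0.57 (adjusted p = 0.197), while LE16, a lipid-transfer protein, had -0.91 (adjusted p = 0.136). The dehydration list had a median stress change of 0.01 in IPT and 0.38 in WT, and a median interaction of -0.47. Among malate and formate enzymes 0 of 8 passed, with a median of -0.04, and ME1, another malic enzyme, had -0.54 (adjusted p = 0.0749). ME1 passed after quantile normalization (-0.70, adjusted p = 0.0144), among brighter probe sets (0.0235) and with trended moderation (0.00079). It did not pass with the 3' minus 5' gap as a covariate (-0.56, adjusted p = 0.243).

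**Figure D5:**
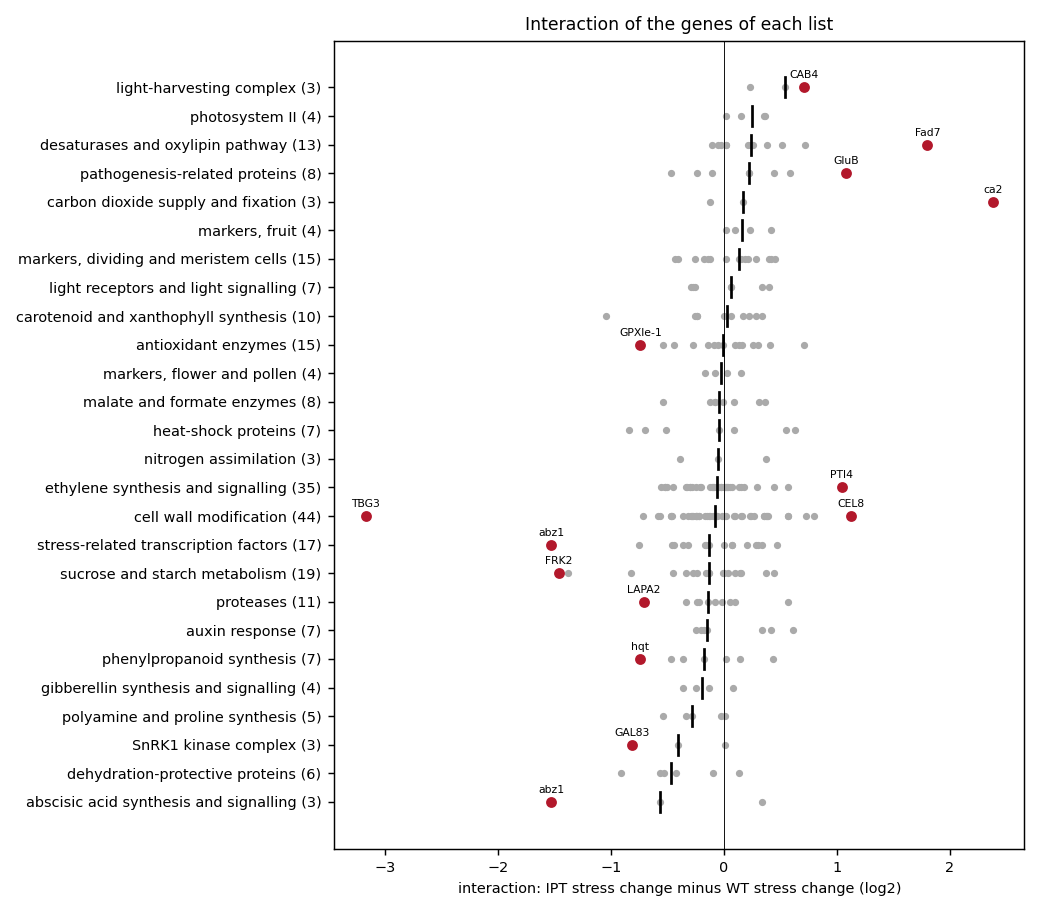
Interaction (log2) of each measured gene of 26 lists of at least 3 genes, 1 probe set per gene; red points passed, grey points did not, and black bars are list medians. Most lists straddle 0, and the passing genes are single members of their lists except for TBG3 and CEL8.

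The response was shared in 61 probe sets, where both stress changes passed in the same direction and the interaction did not. Of named genes these held 1 probe set each of VPE5, a vacuolar processing protease, and CRY1A, the blue-light receptor cryptochrome 1a. VPE5 had 4.25, 4.21 and 4.46 in stressed IPT and 5.50, 5.80 and 5.15 in watered IPT leaves, against 4.12, 4.30 and 4.81 in stressed WT and 5.75, 5.99 and 5.85 in watered WT leaves. It fell by 1.18 in IPT and by 1.45 in WT, and the interaction was 0.28 (95% interval -0.26 to 0.81). CRY1A had 5.66, 6.05 and 5.64 in stressed IPT and 6.94, 7.31 and 6.44 in watered IPT leaves, against 6.42, 6.08 and 6.11 in stressed WT and 7.43, 6.89 and 6.76 in watered WT leaves. It fell by 1.11 in IPT and by 0.82 in WT, with an interaction of -0.29 (95% interval -0.91 to 0.34). Those intervals still allow differences of 0.81 and 0.91 log2 units, so equal responses were not shown. Each gene has other probe sets, with interactions of -0.22 and 0.28 for VPE5 and -0.31 for CRY1A, none of which passed. The brightest VPE5 probe set, with a mean of 5.81, did not share the fall: its stress changes were 0.10 in IPT and 0.33 in WT. A shared fall of VPE5 thus rests on the probe set printed here.

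Over all probe sets the stress changes in IPT and WT, which share no arrays, correlated at r = 0.37. That is a description across probe sets, which are not independent and share the array.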

How the data were processed

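Biotinylated cRNA was made from 6 ug of Trizol-extracted total leaf RNA per array, per the labels' protocols. The authors deposited log2 values from RMA, as the submitters' processing notes name it; the version is not given in the sources used here. Of 10209 probe sets, 108 controls were left out and none was filtered for brightness. Symbols came from the platform annotation, which gives 909 probe sets exactly 1 symbol and none several.

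For all 12 arrays, 1 mean was estimated for each of the 4 groups with limma 3.58.1 in R 4.3.3 (lmFit and eBayes, 8 residual and 7.99 prior degrees of freedom), two-sided, with Benjamini-Hochberg adjustment over 10101 probe sets. Every adjusted p is from this fit or a stated alternative. In a test on simulated data of the interaction over 10101 probe sets, 7.46% of log2 changes of 0.5, 70.1% of changes of 1 and 100% of changes of 2 were recovered, and 6 of 124 calls were false. The simulated noise was normal and independent between arrays, and changes were added to stressed IPT arrays only. It held no shift shared by a group, such as that of the poly-A controls. Its share of false calls therefore does not carry over to the calls reported here. The number of arrays limits the precision, and p-values measure the spread between samples labelled biological replicates.

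The comparison, gene lists and genes of interest were chosen with earlier results of these data known. Named genes were the 12 largest positive and 12 largest negative passing interactions, all gained or reversed ones and all passing list members, 1 probe set per gene by smallest p, with the 2 leading members of a described list that had no call and up to 10 genes with a shared response. MKK4, BMY3, sus3, Cel1, AOC, ME2, AGAL, PR-5, SNF1, SNF4, CAB5, CAB6A, TBG4, TBG5 and TBG6 were chosen after their values were seen. Lists used the brightest probe set of a gene, and patterns of the malate and light signalling lists were corrected for symbols caught by mistake.

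The labels do not say that replicate numbers pair the samples, so the main fit has no replicate block. Deviations from group means correlated at -0.19 to 0.07 between arrays of 1 number, which does not exclude pairing for single genes. Alternatives were median centring, quantile normalization, brighter probe sets only, array weights, trended robust moderation, 2 poly-A covariates, a replicate block and leaving out each array.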

Additional observations from a re-analysis of the deposited data

Results flagged for a closer look

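For each of the 18 named probe sets that passed, the stress change differed between IPT and WT leaves by a test of the difference itself (the interaction in limma, after Benjamini-Hochberg adjustment). The change was lower in IPT for TBG3 (-3.17), abz1 (-1.53), FRK2 (-1.46), DDTFR18 (-0.88), GAL83 (-0.81), GPXle-1 (-0.74), hqt (-0.74), PYD1A (-0.73), eIF-5A1 (-0.72) and LAPA2 (-0.71). It was higher in IPT for the ca2 probe sets (2.38 and 2.23), Fad7 (1.80), XTH16 (1.29), CEL8 (1.12), GluB (1.08), PTI4 (1.04) and CAB4 (0.71). The check for a sample far from its group needs at least 4 samples and was not applied to groups of 3 arrays.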

How the results depend on the processing

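The count of 192 passing probe sets was 300 of the 5050 brighter ones, 332 with trended robust moderation, 105 with the poly-A 3' minus 5' covariate, 73 with the poly-A level and 108 at an interaction of at least 1; centring, quantile normalization and array weights gave 203, 206 and 229, and leaving out an array 134 to 221. Calls higher in IPT numbered 173 with trended moderation, 54 with 3' minus 5' and 8 with the level, against 77 to 117 without an array. Lower calls numbered 144 among brighter probe sets, 159 with trended moderation and 51 with 3' minus 5', against 57 to 104 without an array. Lost responses numbered 230 among brighter probe sets, 251 with trended moderation, 33 with 3' minus 5' and 11 with the level (104 to 173 without an array). Gained ones numbered 26 with array weights and 36 with the level (9 to 21 without an array, 9 without stressed IPT replicate 2). Reversed ones numbered 20 among brighter probe sets, 18 with array weights, 28 with trended moderation, 0 with 3' minus 5' and 23 with the level, and 4 to 14 without an array, with 7 or fewer without any IPT array. Causes of these shifts were not tested. As a replicate block the number gave 165 calls, 157 of them shared, and LAPA2 and PTI4 missed the threshold (adjusted p = 0.0517 and 0.0501), while PTOX and Cel1 passed (0.0136 and 0.042), so 18 named probe sets were called there too. Genes called only under an alternative also included HSP21 (array weights 0.0352, brighter probe sets 0.0354, trended moderation 0.0441), sus3 (0.0354 among brighter probe sets, 0.0348 trended), CAB5 (0.0378) and AOC (0.0435), the last 2 among brighter probe sets. None of HSP21, sus3, CAB5, AOC, PTOX, Cel1, MKK4 and ME1 passed with either poly-A covariate. LAPA2 also missed the threshold after median centring (0.0672). With the poly-A level as a covariate the sign turned for both ca2 probe sets (-0.08 and -1.54), XTH16 (-0.36), eIF-5A1 (0.06), TBG5 (1.15), BMY3 (1.70), sus3 (0.42), TAS14 (0.63), LCY1 (0.01), PR-5 (-0.66), ME2 (-0.22), SNF4 (0.18) and VPE5 (-0.94), and for VPE5 also with 3' minus 5' (-0.12). None of these turned interactions passed, and standard errors with the level were wide, as with 0.5 and 0.64 for ca2, 0.67 for XTH16 and 0.46 for eIF-5A1. A turned sign there does not show a change in the other direction. SNF1, near 0 at 0.01, was -0.06 after quantile normalization and -0.04 to 0.07 without an array. Brightness over background was not available, so dim genes such as GluB, PTI4, CEL8 and AGAL have the least certain levels.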

Other observations

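Most passing probe sets have no gene symbol in the annotation: 167 of the 192, and 7 more carry a LOC symbol. The largest positive interaction among those without a symbol was 3.33 (SE 0.32, adjusted p = 1.77e-05). That probe set had 9.19, 9.25 and 9.24 in stressed IPT and 5.98, 6.89 and 6.19 in watered IPT leaves, against 8.19, 7.77 and 8.18 in stressed WT and 8.26, 8.25 and 9.02 in watered WT leaves. Its watered IPT arrays were the lowest, and stress brought IPT leaves above all WT arrays, a gained rise of 7.32-fold. The next one had 3.24 (adjusted p = 0.00159), a lost fall in which stressed WT replicate 2 was far below its group, at 7.02 beside 8.97 and 9.10.

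The largest negative interaction there was -2.54 (adjusted p = 3.12e-06), a lost rise with 5.56, 5.18 and 5.47 in stressed IPT and 5.50, 5.37 and 5.65 in watered IPT leaves, against 8.53, 8.92 and 8.49 in stressed WT and 6.24, 6.08 and 6.33 in watered WT leaves. The next one rose in both genotypes, 1.75-fold in IPT and 7.49-fold in WT, with an interaction of -2.09 (adjusted p = 4.63e-05).

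LOC543605, LOC544312, LOC543802 and LOC543654 had lost rises with interactions of -1.23, -1.14, -0.87 and -0.68, and LOC778315 had a lost fall with 0.80. LOC544153 reversed: it rose by 0.67 in IPT and fell by 0.57 in WT, with an interaction of 1.24 (adjusted p = 0.00197).

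Lists without a call that the text does not describe further had median interactions of -0.19 for gibberellin (4 genes), -0.15 for auxin response (7), -0.05 for nitrogen assimilation (3), -0.28 for polyamine and proline synthesis (5) and 0.06 for light receptors (7). Markers of other tissues did not pass either, with medians of 0.13 for dividing and meristem cells (15 genes), 0.16 for fruit (4) and -0.03 for flower and pollen (4).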
